A study of Mus musculus with 12 samples.

Results

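The 8 genes described here, Hmgcs1, Idi1, Fdft1, Sqle, Lss, Cyp51, Dhcr7, and Insig1, belong to cholesterol synthesis and its control, and were chosen by name as rows of a count table that holds 52636 genes. Cells build cholesterol from acetyl-CoA through mevalonate, isoprenoids, squalene, and lanosterol. The genes for these steps are switched on together by the transcription factor SREBP2, which is released from the endoplasmic reticulum when membrane cholesterol is low. INSIG proteins hold the SREBP escort protein SCAP in the endoplasmic reticulum when sterols are plentiful, and Insig1 is itself a target of SREBP. Smooth muscle cells (SMCs) of the artery wall take up lipoproteins, make cholesterol, and export it through ABC transporters.

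Bulk RNA-seq was performed on GFP+ SMCs sorted from the ascending/arch and descending thoracic aorta of 12-week-old male C57BL/6J mice, with 3 animals per genotype and 12 libraries in 4 groups. All mice carried the Myh11-CreERT2 transgene, which drives an inducible Cre in smooth muscle, and the mT/mG reporter, which turns a cell green once Cre has acted, and all received tamoxifen for 5 days. Tgfbr1/2iSMCKO mice had in addition floxed alleles of both TGF-β receptor genes (Tgfbr1 fl/fl Tgfbr2 fl/fl), whereas GFPiSMC mice had none, so the receptor deletion and the floxed line cannot be told apart. The labels name doses of 1 and 2 mg/d and induction at 4 or 11 weeks of age without saying which applied to a library, and the study's methods give the higher dose and the later age for adult mice.

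Libraries held 20467027 to 31392396 counts from 9208 to 20000 sorted cells. Values are CPM, counts scaled to the library total, after TMM normalization for library composition. The 8 genes had between 105 and 3769 counts in a library, and all 8 passed the filter on low counts. Smooth muscle markers summed to 39408–46872 CPM in GFPiSMC and 32911–42328 CPM in Tgfbr1/2iSMCKO libraries. Summed markers of other cells reached 226 CPM for fibroblasts, 102 for endothelial cells (mostly Pecam1), 10.7 for macrophages, and 2.44 for adipocytes, and among the marker genes tested the endothelial gene Cdh5 alone passed the genotype test (higher, adjusted p = 0.0250). Receptor transcripts were not a check of the labels, as the counts cover whole genes with the exons that remain after deletion. Tgfbr1 was at 196–292 CPM in GFPiSMC and 198–295 CPM in Tgfbr1/2iSMCKO libraries, and Tgfbr2 was at 88.9–128 and 68.2–102 CPM.

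Both libraries of Tgfbr1/2iSMCKO replicate 3 stood apart from the rest. On the first principal component, which held 34.5% of the variance over 9356 well-expressed genes, they scored 44.8 and 48.7, whereas the other Tgfbr1/2iSMCKO libraries scored between −26.8 and 10.8 and the GFPiSMC libraries between −41.4 and 26.6. They came from 11825 and 12000 sorted cells, fewer than the 14360 to 20000 of the other Tgfbr1/2iSMCKO libraries though within the range of GFPiSMC. Their smooth muscle marker sums were the lowest (32911 and 34117 CPM), but most of each sum was Acta2 (20543 and 21323 CPM, also the lowest). Tagln (3801 and 4074 CPM) was below all GFPiSMC libraries, which was not particular to this animal. The same held for 5 Tgfbr1/2iSMCKO libraries in total. Smtn (850 and 835 CPM) and Myocd (275 and 343 CPM) were instead the highest of the 12 libraries. Myh11 and Cnn1 were above the other Tgfbr1/2iSMCKO libraries. Results are given with and without this animal.

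Sequence upstream of the start site was matched for 6 of the 8 genes, not for Sqle and Fdft1. The 250 bases before the start site are shown for 4 of the genes that were lower in Tgfbr1/2iSMCKO (start sites and sequence from RefSeq, GRCm38.p6), because these are the stretches in which SREBP2 and its partner NF-Y are known to bind. They are Insig1 at chr5:28071162-28071411 (plus strand), Cyp51 at chr5:4104698-4104947 (minus strand), Hmgcs1 at chr13:119690101-119690350 (plus strand), and Idi1 at chr13:8885356-8885605 (plus strand), each written 5′ to 3′. Capitals mark TCACNNCA or its stricter form TCACNCCAC (letters of the sterol regulatory element), CACGTG (an E-box), and ATTGG or CCAAT (letters of an NF-Y site), each searched on both strands.
Insig1: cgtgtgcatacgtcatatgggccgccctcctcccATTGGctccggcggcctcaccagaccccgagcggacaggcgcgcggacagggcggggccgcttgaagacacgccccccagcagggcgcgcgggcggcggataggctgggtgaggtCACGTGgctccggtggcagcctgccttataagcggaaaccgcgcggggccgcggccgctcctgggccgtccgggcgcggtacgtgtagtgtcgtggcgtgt
Cyp51: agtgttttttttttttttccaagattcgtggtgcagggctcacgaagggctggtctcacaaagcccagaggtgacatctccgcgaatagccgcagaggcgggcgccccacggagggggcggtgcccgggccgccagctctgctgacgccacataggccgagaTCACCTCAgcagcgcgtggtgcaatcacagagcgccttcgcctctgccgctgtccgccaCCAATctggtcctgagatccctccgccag
Hmgcs1: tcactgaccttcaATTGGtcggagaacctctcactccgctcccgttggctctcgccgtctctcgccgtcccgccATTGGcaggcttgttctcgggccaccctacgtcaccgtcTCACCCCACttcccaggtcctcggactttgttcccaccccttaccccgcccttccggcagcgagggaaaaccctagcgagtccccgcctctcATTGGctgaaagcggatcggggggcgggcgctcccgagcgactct
Idi1: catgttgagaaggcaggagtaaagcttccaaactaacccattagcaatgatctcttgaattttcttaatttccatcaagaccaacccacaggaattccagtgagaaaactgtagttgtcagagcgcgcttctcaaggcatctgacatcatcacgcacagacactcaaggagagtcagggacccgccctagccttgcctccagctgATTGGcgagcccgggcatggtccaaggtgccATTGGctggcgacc
The strict form TCACNCCAC was found in 1.04% of 32536 windows of this length, and among the 6 genes in Hmgcs1 alone, 137 bases before the start. The looser TCACNNCA, which includes every strict match, was in 11.4% of all windows and in 3 of the 6 genes. It lay 88 bases before the start of Cyp51 and in 2 of the 3 windows of Dhcr7. The E-box was in 6.04% of all windows and in those of Insig1 (101 bases before the start) and Dhcr7. ATTGG or CCAAT was in 33.8% of all windows and in each of the 6 genes, with 3 copies in Hmgcs1 and 2 in Idi1. GGGCGG (letters of an Sp1 site) was in 33.0% of all windows and in each of the 6 genes. The matches were not particular to these genes. Of 12 further cholesterol synthesis genes with a window, 11 held ATTGG or CCAAT and 10 held GGGCGG. The looser TCACNNCA was in 4 of them, the E-box in 2, and the strict form in 0. RefSeq start sites differ from the GENCODE gene positions printed with each gene, and by the latter 105 bases of the Idi1 window and 49 bases of each of the Insig1 and Cyp51 windows lie inside the gene. Both Idi1 matches and the CCAAT of Cyp51 fall in these stretches. These matches are letters and not measured binding, and Dhcr7 had more windows in which a match could fall.

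Over both segments, 5 of the 8 genes were lower in Tgfbr1/2iSMCKO SMCs and none was higher, against 3.23% of 22320 genes called lower and 1.8% called higher (edgeR quasi-likelihood test, Benjamini-Hochberg adjusted p under 0.05). They were Insig1, the sterol-dependent regulator, the synthase Hmgcs1, the isomerase Idi1, the squalene synthase Fdft1, and the demethylase Cyp51. Insig1 and Cyp51 fell by more than 2-fold, a size that 1.64% of genes reached together with the test. Unadjusted p values under 0.05 were found for the same 5 members and for 16.1% of all genes. The median log2 fold change of the 8 genes was −0.63, beside 0.040 over all tested genes. Sqle, Lss, and Dhcr7 did not pass, and in these the libraries of Tgfbr1/2iSMCKO replicate 3 lay far from those of replicates 1 and 2. Without this animal 7 of 8 were called lower, against 2.92% of genes lower and 1.3% higher, with a median log2 fold change of −1.03. Leaving out another animal brought the count down. It was 3 without GFPiSMC replicate 1 (1.84% of genes lower) and 2 without GFPiSMC replicate 2 or 3 (1.92% in each). It was 2 without Tgfbr1/2iSMCKO replicate 1 (1.75%) or replicate 2 (2.92%). When the counts of the segments were summed per animal, so that each mouse entered once, Insig1 was the 1 member called (1.25% of genes lower and 0.606% higher). In bulk RNA, less transcript per cell and fewer cells that express a gene cannot be told apart.

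**Figure D1:**
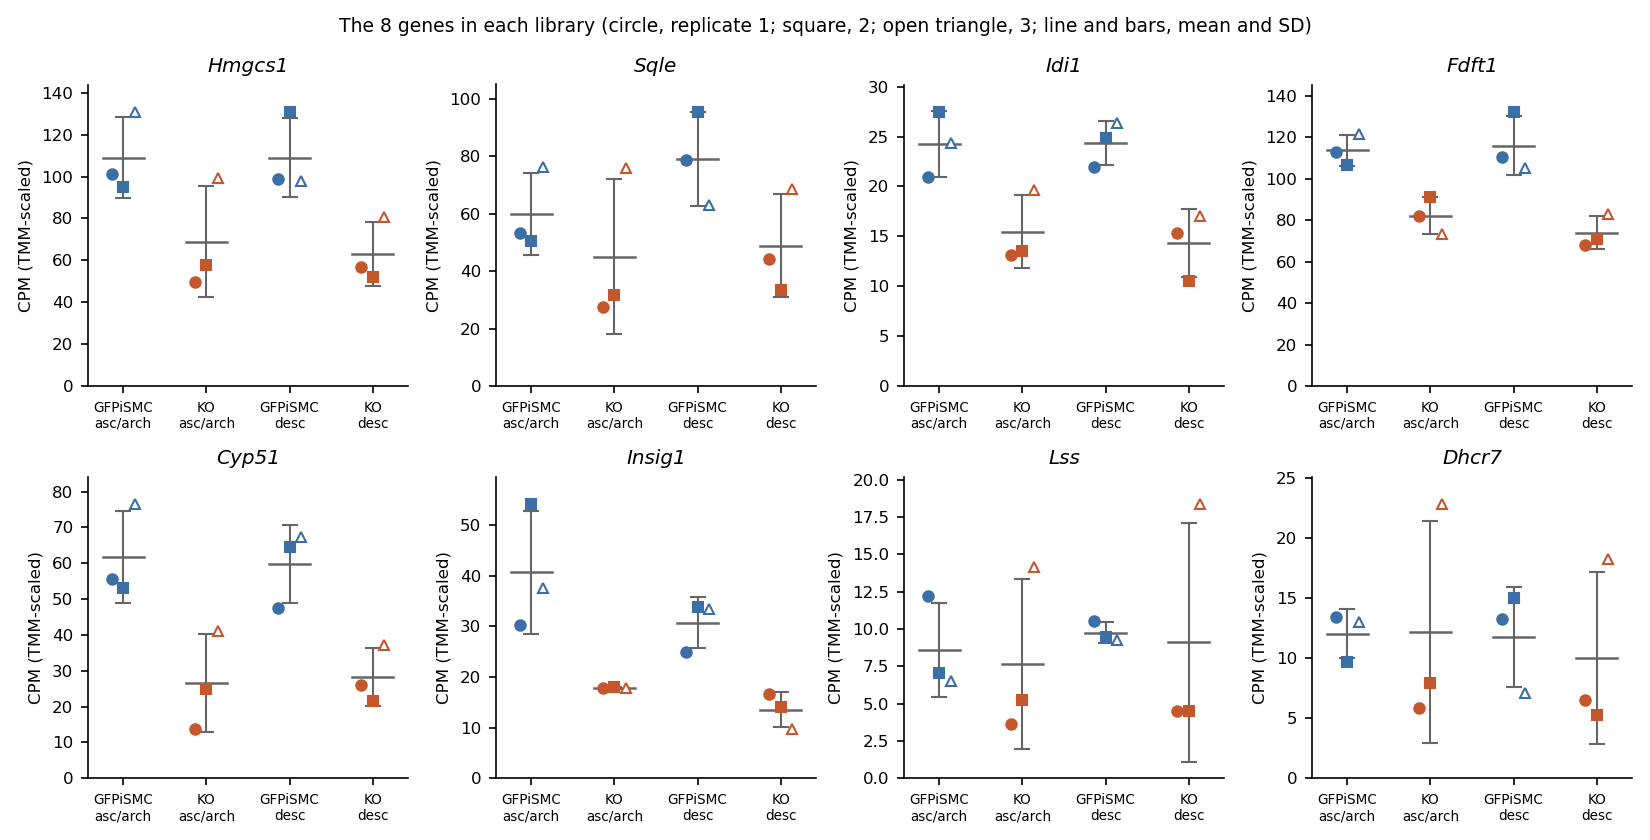
CPM of each gene (vertical axis, from 0) in the 12 libraries, by genotype (blue, GFPiSMC; orange, Tgfbr1/2iSMCKO, marked KO) and segment (asc/arch, ascending/arch; desc, descending), with one symbol per replicate and the mean and SD of 3 animals in gray. All Tgfbr1/2iSMCKO points lie below all GFPiSMC points for Idi1, Fdft1, Cyp51, and Insig1, whereas replicate 3 (open triangles) lies above every GFPiSMC point for Lss and Dhcr7.

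Hmgcs1 (chr13:119690379-119708260, plus strand, GRCm38) encodes the cytosolic synthase that makes HMG-CoA. In ascending/arch SMCs it was at 101, 94.9, and 131 CPM in GFPiSMC replicates 1 to 3 and at 49.7, 57.9, and 99.1 CPM in Tgfbr1/2iSMCKO. In descending SMCs it was at 98.8, 131, and 97.7 CPM in GFPiSMC and at 56.6, 52.0, and 80.7 CPM in Tgfbr1/2iSMCKO. Replicates 1 and 2 of Tgfbr1/2iSMCKO were below every GFPiSMC library, whereas replicate 3 reached the GFPiSMC range in the ascending/arch. The log2 fold change was −0.73 ± 0.18 (SE, edgeR adjusted p = 0.0376), and −1.03 (adjusted p = 0.00156) without replicate 3.

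Idi1 (chr13:8885501-8892451, plus strand) encodes the isomerase that balances the 5-carbon isoprenoid units. Its GFPiSMC libraries held 20.9, 27.5, and 24.4 CPM in the ascending/arch and 21.9, 24.8, and 26.3 CPM in the descending segment. The Tgfbr1/2iSMCKO libraries held 13.1, 13.5, and 19.7 CPM in the ascending/arch and 15.4, 10.5, and 17.0 CPM in the descending segment. The genotypes did not overlap, and the highest Tgfbr1/2iSMCKO value was again from replicate 3. The log2 fold change was −0.71 ± 0.17 (adjusted p = 0.0289), and −0.90 without that animal. With any other animal left out Idi1 did not pass (edgeR adjusted p from 0.0770 to 0.149), nor with counts summed per animal (adjusted p = 0.265).

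Fdft1 (chr14:63145150-63179578, minus strand) encodes squalene synthase, the first enzyme committed to sterols. GFPiSMC libraries were at 113, 107, and 122 CPM in the ascending/arch and at 110, 132, and 105 CPM in the descending segment. Tgfbr1/2iSMCKO libraries were at 81.9, 91.2, and 73.1 CPM and at 68.0, 70.9, and 82.9 CPM. All 6 Tgfbr1/2iSMCKO values were below all 6 of GFPiSMC, and replicate 3 fell among the others. The change was, in the 12-library fit, the smallest of the 5 and had the smallest SE, at −0.56 ± 0.11 (adjusted p = 0.00769) and −0.58 without replicate 3. With another animal left out the edgeR adjusted p of Fdft1 ran from 0.0185 to 0.0689. With counts summed per animal it was 0.0928. Fdft1 overlaps the opposite-strand gene Ctsb over 774 bases, and Ctsb, a lysosomal protease gene at 1262–2137 CPM, had a log2 fold change of −0.15 (adjusted p = 0.658). How reads in shared stretches were assigned is not given in the sources used here, and this also touches the overlaps of Hmgcs1, Idi1, and Lss with low-expressed genes on the opposite strand (at most 11.7, 0.826, and 0.269 CPM).

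Sqle (chr15:59315077-59331192, plus strand) encodes squalene epoxidase, a rate-limiting oxygen-dependent step. In the ascending/arch it was at 53.2, 50.4, and 76.3 CPM in GFPiSMC and at 27.6, 31.6, and 76.0 CPM in Tgfbr1/2iSMCKO. In the descending segment it was at 78.9, 95.5, and 63.0 CPM and at 44.4, 33.6, and 68.7 CPM. Replicates 1 and 2 of Tgfbr1/2iSMCKO were below every GFPiSMC library and replicate 3 was inside the GFPiSMC range. The log2 fold change of −0.55 ± 0.26 did not pass (adjusted p = 0.322). Without replicate 3 it was −1.03 with an adjusted p of 0.00591, the only one of 14 alternatives in which Sqle passed (range to 0.668).

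Lss (chr10:76531588-76557138, plus strand) encodes lanosterol synthase, which closes the sterol rings. Its GFPiSMC libraries held 12.2, 7.07, and 6.53 CPM in the ascending/arch and 10.5, 9.46, and 9.24 CPM in the descending segment. The Tgfbr1/2iSMCKO libraries held 3.60, 5.24, and 14.2 CPM and 4.47, 4.49, and 18.3 CPM. Replicates 1 and 2 were the lowest 4 of the 12 libraries and replicate 3 the highest 2. The fitted difference of −0.13 ± 0.40 (adjusted p = 0.936) thus averaged animals on either side of GFPiSMC, and without replicate 3 it was −1.05 (adjusted p = 0.0269, over all 14 alternatives up to 0.992).

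Cyp51 (chr5:4081145-4104746, minus strand) encodes lanosterol 14α-demethylase, the first step after ring closure. GFPiSMC libraries were at 55.7, 53.0, and 76.5 CPM in the ascending/arch and at 47.4, 64.6, and 67.5 CPM in the descending segment. Tgfbr1/2iSMCKO libraries were at 13.8, 24.99, and 41.1 CPM and at 26.1, 21.6, and 37.2 CPM. The genotypes did not overlap, although replicate 3 was the highest of Tgfbr1/2iSMCKO in both segments. The log2 fold change was −1.15 ± 0.24 (adjusted p = 0.0120), a 2.21-fold lower level, and −1.51 without replicate 3. The edgeR adjusted p ran from 0.0391 to 0.0888 with another animal left out. With counts summed per animal it was 0.121. Cyp51 shares 166 bases with the opposite-strand gene Akap9, for which the log2 fold change was −0.20 (adjusted p = 0.675).

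Dhcr7 (chr7:143823145-143848410, plus strand) encodes 7-dehydrocholesterol reductase, a last step to cholesterol. In the ascending/arch it was at 13.4, 9.72, and 13.0 CPM in GFPiSMC and at 5.83, 7.91, and 22.8 CPM in Tgfbr1/2iSMCKO. In the descending segment it was at 13.3, 15.003, and 7.11 CPM and at 6.54, 5.28, and 18.3 CPM. As for Lss, replicate 3 held the highest 2 of the 12 values, whereas replicates 1 and 2 were at or below the bottom of the GFPiSMC range, with 1 overlap. The log2 fold change was −0.11 ± 0.38 (adjusted p = 0.946), and −0.92 without replicate 3 (adjusted p = 0.0661), so that Dhcr7 was the 1 gene of the 8 that passed under none of the 14 alternatives.

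Insig1 (chr5:28071363-28078662, plus strand) is the one regulator among the 8 genes. GFPiSMC libraries held 30.3, 54.2, and 37.6 CPM in the ascending/arch and 25.01, 33.8, and 33.5 CPM in the descending segment. Tgfbr1/2iSMCKO libraries held 17.8, 18.1, and 17.8 CPM in the ascending/arch and 16.7, 14.2, and 9.82 CPM in the descending segment. All 6 were below all GFPiSMC libraries, and here replicate 3 did not lie near GFPiSMC, as its descending library had the lowest value of all. The log2 fold change was −1.18 ± 0.18 (adjusted p = 0.00139), or 2.27-fold lower, and −1.10 without replicate 3. Insig1 passed in all 14 alternatives, with adjusted p values up to 0.0386. Fdft1 passed in 12, Cyp51 in 10, and Hmgcs1 and Idi1 in 6 each.

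In 4 of the 8 genes all Tgfbr1/2iSMCKO libraries were below all GFPiSMC libraries, beside 2.89% of all genes. For the 4 libraries of replicates 1 and 2 alone this held in 7 of the 8, beside 4.38%. The pattern of Sqle, Lss, and Dhcr7, with replicates 1 and 2 below and replicate 3 above the GFPiSMC mean, was shared by 19% of all genes.

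**Figure D2:**
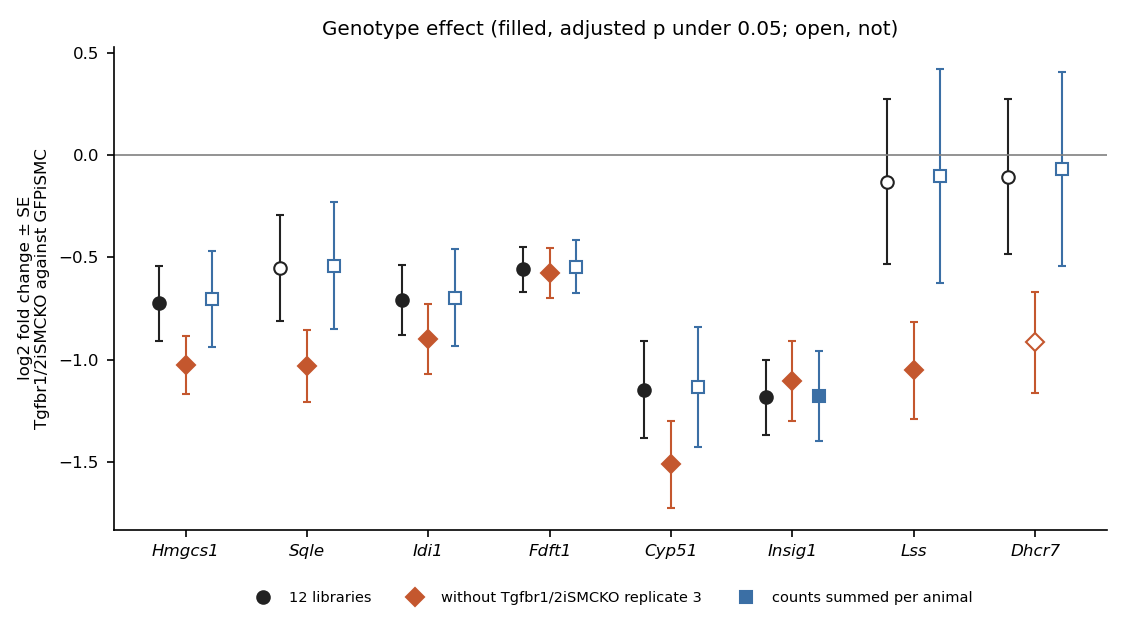
Log2 fold change of Tgfbr1/2iSMCKO against GFPiSMC (vertical axis) with its SE for each gene, from the 12 libraries (circles), without Tgfbr1/2iSMCKO replicate 3 (diamonds), and with counts summed per animal (squares); filled symbols passed an adjusted p of 0.05. Insig1 is filled in all 3 fits, and without replicate 3 the values for Lss and Dhcr7 move from near 0 to −1.05 and −0.92.

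The level of the whole set followed the same division of animals. The mean of the 8 centered log2 CPM values was between 0.26 and 0.54 in the 6 GFPiSMC libraries and between −0.76 and −0.46 in the 4 libraries of Tgfbr1/2iSMCKO replicates 1 and 2. It was 0.25 (ascending/arch) and 0.080 (descending) in replicate 3. Replicate 3 was above the mean of replicates 1 and 2 by 1.76 on the log2 scale for Lss, 1.62 for Dhcr7, 1.09 for Sqle, 0.88 for Cyp51, 0.72 for Hmgcs1, and 0.47 for Idi1. For Fdft1 the difference was 0.0078 and for Insig1 it was −0.32, beside a median of −0.055 over all tested genes. Of all tested genes, 17.6% were more than 1.5-fold higher in replicate 3 than in replicates 1 and 2. Within Tgfbr1/2iSMCKO the set level was higher in libraries of fewer sorted cells. It was −0.76 and −0.72 at 20000 cells, −0.50 at 15914, −0.46 at 14360, 0.080 at 12000, and 0.25 at 11825. GFPiSMC replicate 2, with 9208 sorted cells in its descending library and 20000 in its ascending/arch library, had set levels of 0.54 and 0.27. Other GFPiSMC libraries did not keep this order, with 0.44 at 16292 cells and 0.29 at 11088. The part of cell number and of smooth muscle marker level in these values was not tested.

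**Figure D3:**
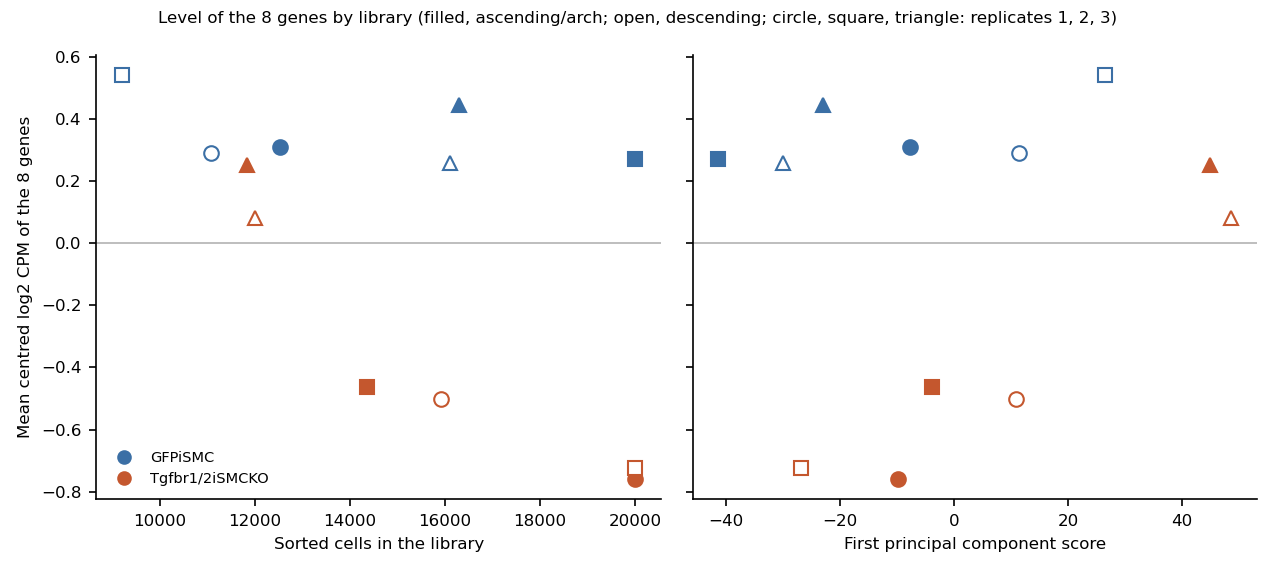
Mean centered log2 CPM of the 8 genes (vertical axis) against the number of sorted cells (left) and the first principal component score over well-expressed genes (right), for the 12 libraries, colored by genotype (blue, GFPiSMC; orange, Tgfbr1/2iSMCKO). Replicate 3 of Tgfbr1/2iSMCKO (orange triangles) sits at 0.25 and 0.080 on the vertical axis, above the −0.76 to −0.46 of the other Tgfbr1/2iSMCKO libraries, at the far right of the component axis.

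Across the 12 libraries Pearson r was positive in 27 of 28 pairs of the 8 genes, with a median of 0.73. Insig1 was near 0 with Lss (−0.019) and Dhcr7 (0.053). After removal of the group means r was positive in 21 of 28 pairs with a median of 0.59. Hmgcs1 and Sqle were the closest pair within groups (r = 0.98), followed by Sqle with Dhcr7 (0.93). Insig1 and Fdft1 did not follow the other genes within groups. Insig1 was positive with Idi1 alone (0.16) and lowest with Lss (−0.60) and Dhcr7 (−0.51). Fdft1 ran from −0.34 (with Insig1) to 0.23 (with Dhcr7). The libraries share animals, depth scaling, and the contrast of replicate 3, so these values are descriptive.

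Per kilobase of exon, Fdft1 was the most abundant of the 8 in GFPiSMC SMCs at a mean of 27.2 CPM per kb (range over 6 libraries 24.9–31.3), and Hmgcs1 followed at 23.7 (20.7–28.5). Cyp51, Sqle, and Insig1 came next at 13.8, 12.5, and 11.6 CPM per kb with ranges that overlapped throughout. Idi1 stood by itself at 6.93 (5.96–7.84), above Dhcr7 at 2.05 (1.22–2.58), and Lss was the lowest at 0.85 (0.61–1.13). The exon model of Lss spans 10787 bases, and the gene had as few as 105 counts in a library. In Tgfbr1/2iSMCKO the order was Fdft1 (18.5 CPM per kb), Hmgcs1 (14.4), Sqle (8.47), Cyp51 (6.22), Insig1 (5.08), Idi1 (4.24), Dhcr7 (1.91), and Lss (0.78), and the ranges of all neighbors in this order overlapped.

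The genotype effect was then read in each segment, with a fit of 4 group means. In ascending/arch SMCs none of the 8 passed in edgeR, beside 1.01% of genes called lower and 0.403% higher. Unadjusted, 5 had a p under 0.05 (11.4% of genes), and DESeq2 called Cyp51 and Insig1, 2 of the 8, beside 2.58% of genes lower. Without Tgfbr1/2iSMCKO replicate 3, Cyp51 was the 1 gene called (log2 fold change −1.68, adjusted p = 0.0303, over its alternatives up to 0.496), beside 0.756% of genes lower and 0.263% higher. In descending SMCs Insig1 passed (−1.18 ± 0.27, adjusted p = 0.0479), beside 1.21% of genes called lower and 0.52% higher, and 5 had an unadjusted p under 0.05 (10.7% of genes). DESeq2 called Insig1 and Fdft1 there, beside 2.89% of genes lower. The descending call of Insig1 was lost when any animal was left out, and without Tgfbr1/2iSMCKO replicate 3 Hmgcs1 was called instead (−1.03, adjusted p = 0.0439, over its alternatives up to 0.760), beside 1.08% of genes lower and 0.323% higher.

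Fold changes were alike in size in both segments. For Insig1 the log2 fold change was −1.19 in the ascending/arch and −1.18 in the descending segment, a difference of 0.0045 ± 0.38. For Cyp51 it was −1.21 and −1.08, for Hmgcs1 −0.66 and −0.79, for Idi1 −0.65 and −0.77, and for Fdft1 −0.47 and −0.65. Differences of the 8 genes ran from −0.29 (Sqle) to 0.13 (Cyp51) with SEs of 0.22 to 0.84. In edgeR, 0 of the 8 differed between segments at an adjusted or an unadjusted p under 0.05, and DESeq2 gave 0 as well, beside 0% of all genes by the adjusted and 2.95% by the unadjusted p. The smallest SE was that of Fdft1, for which the difference was −0.18 ± 0.22, so modest differences between segments could not be detected.

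Between segments of one genotype, edgeR and DESeq2 called 0 of the 8 genes and 0 had an unadjusted p under 0.05, in GFPiSMC (0.309% of genes called lower and 0.0672% higher in the descending segment) and in Tgfbr1/2iSMCKO (0.0941% and 0.0179%). Unadjusted, 5.98% of all genes were under 0.05 in GFPiSMC and 3.68% in Tgfbr1/2iSMCKO. Insig1, named here after its values were seen, was lower in the descending segment in 6 of 6 animals, with log2 differences of −0.40 ± 0.26 (adjusted p = 0.910) in GFPiSMC and −0.40 ± 0.27 (adjusted p = 1) in Tgfbr1/2iSMCKO. Sqle was higher in the descending segment in 4 of 6 animals (0.40 ± 0.38 in GFPiSMC and 0.12 ± 0.38 in Tgfbr1/2iSMCKO). For the other 6 genes 2 to 4 of the 6 animals were lower in the descending segment.

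The remaining genes of cholesterol synthesis changed in part. Of 15 further enzyme genes, 4 were lower and 1 was higher, beside 3.23% of all genes called lower and 1.8% called higher. Of these 5 genes, 3 are described here. Fdps, which makes farnesyl diphosphate between Idi1 and Fdft1, went from 93.1–145 CPM in GFPiSMC to 38.0–75.2 CPM in Tgfbr1/2iSMCKO (−1.11 ± 0.16, adjusted p = 0.00109). Msmo1, a methyl sterol oxidase that acts after Cyp51, went from 165–267 CPM to 102–130 CPM (−0.83 ± 0.12, adjusted p = 0.000899). Ggps1, which draws farnesyl diphosphate off into geranylgeranyl diphosphate for protein prenylation, was higher, at 78.9–109 CPM in GFPiSMC and 141–205 CPM in Tgfbr1/2iSMCKO (0.75 ± 0.12, adjusted p = 0.00177). All Tgfbr1/2iSMCKO libraries were below all GFPiSMC libraries for Fdps and Msmo1, beside 2.89% of all genes. For Ggps1 all were above, a pattern whose share over all genes is not given here. These 3 genes passed in each of 14 alternatives, counts summed per animal included. The 10 genes that did not pass had log2 fold changes from −0.77 (Hsd17b7, adjusted p = 0.0860) to 0.13 (Acat2).

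**Figure D4:**
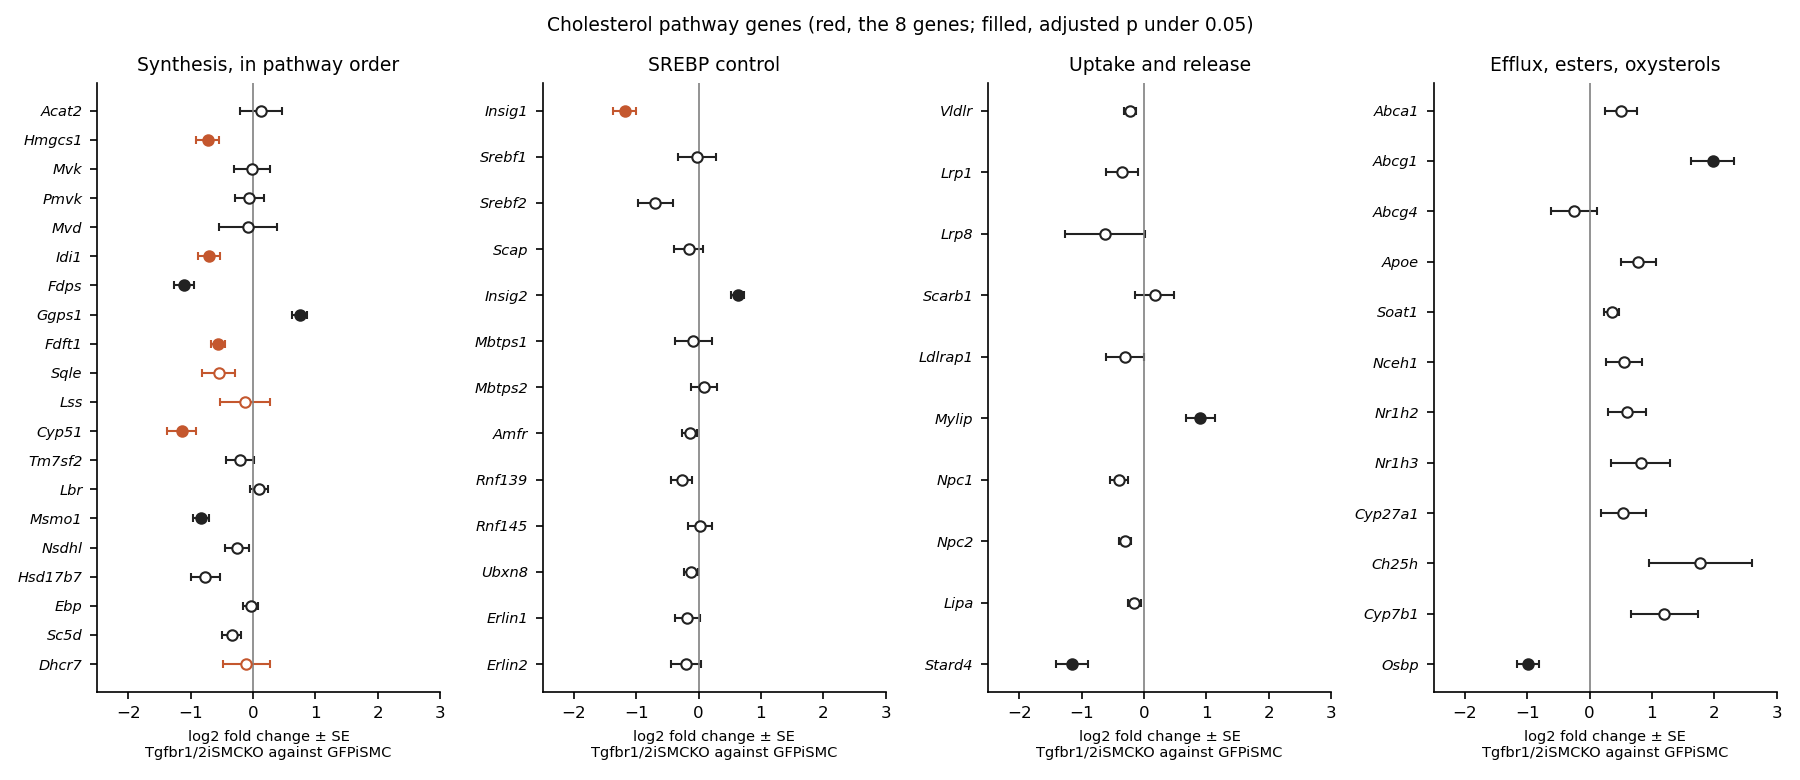
Log2 fold change of Tgfbr1/2iSMCKO against GFPiSMC with its SE (horizontal axes) over both segments for the cholesterol synthesis genes described here, in pathway order. Further panels show genes of SREBP control, of uptake and release, and of efflux, esters, and oxysterols. The 8 genes are in red, and filled points have an adjusted p under 0.05. Filled synthesis genes lie left of 0 except Ggps1 (0.75), and Insig1 (−1.18) and Insig2 (0.63) lie on opposite sides of 0.

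Among 11 tested genes of uptake and lysosomal release, 1 was lower and 1 was higher, beside 3.23% and 1.8% of all genes. Stard4, a sterol carrier, was lower (10.2–21.2 against 3.44–8.30 CPM, −1.16 ± 0.25, adjusted p = 0.0163), and Mylip, a ubiquitin ligase induced by LXR, was higher (11.3–19.6 against 15.7–38.8 CPM, 0.90 ± 0.23, adjusted p = 0.0414). Stard4 passed in 10 and Mylip in 6 of 14 alternatives.

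Of 12 genes that control SREBP, beside 3.23% of all genes lower and 1.8% higher, none was lower and 1 was higher. This was Insig2, the paralog of Insig1 that is not driven by SREBP in most cells, with 119–185 CPM in GFPiSMC and 186–266 CPM in Tgfbr1/2iSMCKO (0.63 ± 0.11, adjusted p = 0.00275), passing in all 14 alternatives. Srebf2, the gene of SREBP2, was at 40.4–62.7 CPM in GFPiSMC, at 18.9–25.1 CPM in replicates 1 and 2 of Tgfbr1/2iSMCKO, and at 50.03 and 53.6 CPM in replicate 3 (−0.69 ± 0.28, adjusted p = 0.216). Without replicate 3 Srebf2 was lower (−1.25, adjusted p = 0.00149, over its alternatives up to 0.566). Srebf1 (−0.03 ± 0.31) and Scap (−0.16 ± 0.23) had adjusted p values of 0.985 and 0.848, and the sign turned for Srebf1 without GFPiSMC replicate 2 or Tgfbr1/2iSMCKO replicate 1 or 2, and for Scap without Tgfbr1/2iSMCKO replicate 1.

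Among 12 genes of cholesterol efflux, esterification, and oxysterols, 1 was lower and 1 was higher, beside 3.23% and 1.8% of all genes. Abcg1, an exporter that is a target of the oxysterol receptors LXR, was higher (2.103–5.70 against 3.81–30.8 CPM, 1.97 ± 0.34, adjusted p = 0.00317), and Osbp, the oxysterol-binding protein, was lower (57.2–79.3 against 23.9–47.9 CPM, −0.98 ± 0.17, adjusted p = 0.00380). Abca1, the exporter to apolipoprotein A-I, had a log2 fold change of 0.51 ± 0.25 (adjusted p = 0.360) and, without replicate 3, of 0.79 (adjusted p = 0.0216, over its alternatives up to 0.684). Among 12 genes of fatty acid synthesis 1 was lower and 1 was higher, beside the same shares of all genes. Me1, which supplies NADPH, was lower (−0.63 ± 0.11, adjusted p = 0.00490) and the desaturase Scd1 was higher (0.73 ± 0.13, adjusted p = 0.00333). The median log2 fold change was −0.21 for the 15 synthesis genes, −0.31 for uptake and lysosomal release, and −0.13 for SREBP control. It was 0.58 for efflux, esterification, and oxysterols and 0.33 for fatty acid synthesis, beside −0.63 for the 8 genes.

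The genes whose levels over the 12 libraries were most like the mean of the 8 were Fkbp9, an endoplasmic reticulum prolyl isomerase (r = 0.97), Rcan2, a calcineurin regulator (0.96), Hsph1, a heat shock chaperone (0.96), Tnk2, a kinase (0.95), and Kank1, an actin regulator (0.95), of 11142 genes ranked. Of these, Rcan2, Hsph1, and Tnk2 passed the genotype test (log2 fold changes −0.53, −1.28, and −0.71), and Fkbp9 and Kank1 did not (adjusted p = 0.0544 and 0.0690). Each listed gene was picked by r with a mean that already differed between genotypes. A genotype difference in them was thus largely set by the choice and is no separate result. Among the cholesterol genes the closest were Fdps (0.92) and Srebf2 (0.90), and the most opposed was Mylip (−0.93).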

How the data were processed

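Per the study's methods, the authors trimmed reads with Trim Galore, aligned them to GRCm38 with HISAT2, and quantified GENCODE M15 genes with StringTie. The deposited table holds estimated counts per gene, already whole numbers, for 52636 genes in 12 libraries without normalization. How StringTie output became whole counts, and strand handling, are not given in the sources used here. The deposited counts were not altered. Symbols and positions came from GENCODE M21, the same build (52403 genes matched).

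Genes were filtered with filterByExpr on the 4 groups (22320 kept), scaled by TMM, and tested with edgeR 4.0.16 in R 4.3.3: genotype with segment as a covariate, and a fit of 4 group means for all other contrasts, with Benjamini-Hochberg adjustment over all genes tested. Each SE was obtained by dividing the absolute log2 fold change by the root of its F statistic. A gene was called at an adjusted p under 0.05. The study's added requirement of 2-fold was an alternative, as were DESeq2 1.42.0, RLE factors, library size only, no filter, each segment alone, and a replicate block. Others were limma-voom 3.58.1 with the animal as a random effect, counts summed per animal, and each animal left out. The ascending/arch and descending libraries with one genotype and number were treated as one mouse, which the 12-library fit treats as separate. An exact permutation test of 3 against 3 animals cannot go below 0.1. The scripts were tested on simulated data.

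The 8 genes, the pathway lists, and the markers were chosen with earlier results of these data known. Named genes were all 8, pathway genes past the threshold, a few further regulators and transporters (Srebf2, Srebf1, Scap, Insig2, and Abca1), and the 5 other genes of at least 100 mean counts with the highest r with the mean of the 8. Values of some listed genes are not reported here, although counts and medians over the lists include them. Figures used matplotlib 3.10.9 in Python 3.11.15.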

Additional observations from a re-analysis of the deposited data

How the results depend on the processing

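The count of 5 genes lower in Tgfbr1/2iSMCKO over both segments was also 5 with DESeq2, edgeR without segment, RLE factors, and the replicate block. It was 5 as well with limma-voom, which took the animal as a random effect. It was 3 with library size only, 3 with no filter, 2 with the added 2-fold requirement, 1 with counts summed per animal, and 2 to 7 with an animal left out. Library size only moved the median of all genes from 0.040 to 0.16 on the log2 scale, and the median of the 8 was −0.51 on that scale. In the ascending/arch the count was 2 with DESeq2 and 0 to 1 with an animal left out. In the descending segment it was 2 with DESeq2, 0 with the segment fitted alone, RLE factors, library size only, no filter, or the replicate block, and 0 to 1 with an animal left out. The other 12 pathway genes past the threshold became 5 with the 2-fold requirement. Counts of 0 for differences between segments stayed at 0 in the alternatives run for them.

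Of single genes, directions turned for values near 0. With an animal left out, Lss ran from −1.05 to 0.21 over both segments, −0.97 to 0.19 in the ascending/arch, and −1.14 to 0.23 in the descending segment, and Dhcr7 from −0.92 to 0.18, −0.82 to 0.36, and −1.02 to 0.076. Srebf1 ran from −0.50 to 0.19 and Scap from −0.52 to 0.054. With library size only, Dhcr7 was 0.015 over both segments, Lss 0.041 in the descending segment, and Srebf1 0.098 over both. With the replicate block, Dhcr7 was −0.22 in the ascending/arch.

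The labels give both genotypes the same numbers without saying that a number pairs animals. Correlations of same-numbered libraries of the 2 genotypes, after removal of group means, were −0.20, 0.21, and 0.021 in the ascending/arch and 0.023, −0.46, and −0.51 in the descending segment, so the block is an alternative only. The number of animals, 3 per genotype, limits these results, and the effect of depth was not tested. The cause of these shifts was not tested.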
